A study of Homo sapiens with 6 samples.

Results

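The MX and guanylate-binding protein (GBP) genes encode large GTPases of the dynamin superfamily that cells make in response to interferon. The members described here were the 7 genes MX1, MX2, GBP1, GBP2, GBP3, GBP4 and GBP5, taken by symbol from the 28278 genes listed in each library. They were chosen by their difference in scaled counts between siALDOA and siControl, which was already known, so that difference is given for them as a description, without p-values, and the number of them past the threshold is no test of them. HT29, a human colorectal adenocarcinoma cell line of epithelial morphology, was treated with a siRNA against ALDOA, a glycolytic aldolase (siALDOA), or with a scrambled control siRNA (siControl). RNA was taken after 48 h from 3 biological replicates of each group, and the RNA-Seq reads were counted per gene. The sequence of the ALDOA siRNA was not given in the sources used here, the labels name a single siRNA, and no untransfected cells were analysed. An effect of the siRNA itself and an effect of less ALDOA therefore cannot be told apart in any value below.

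MX proteins assemble into rings and filaments and block the early steps of virus replication, MX1 mainly against viruses such as influenza and MX2 against the nuclear entry of HIV-1. GBP proteins hydrolyse GTP and form coats on the membranes of bacteria and of vacuoles that hold pathogens, where they recruit one another and the inflammasome machinery. Type I and type III interferons drive such genes through a transcription factor complex with STAT2 and IRF9 that binds an interferon-stimulated response element (ISRE). Interferon gamma acts at a gamma-activated site (GAS), and the GBP genes are among the best known targets of that route.

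The 2 MX genes lie next to each other on chromosome 21 of hg38, with 10626 bases between them in GENCODE release 44. MX2 (ENSG00000183486) spans 41361999 to 41409393 and MX1 (ENSG00000157601) spans 41420020 to 41470071, both on the plus strand. The 5 GBP members lie in 1 cluster of 266182 bases on the minus strand of chromosome 1. In the order of the chromosome, GBP3 (ENSG00000117226) spans 89006679 to 89022894, GBP1 (ENSG00000117228) 89051882 to 89065360, GBP2 (ENSG00000162645) 89106132 to 89150456, GBP4 (ENSG00000162654) 89181144 to 89198942 and GBP5 (ENSG00000154451) 89256189 to 89272860. The coding sequences of GBP1 and GBP3 were the closest pair of members, identical at 91.6% of aligned bases. GBP2 was identical to GBP3 at 82.7% and to GBP1 at 82.4%, GBP4 differed most, at 64.5% with GBP3 and with GBP5, and MX1 and MX2 were identical at 70.1%. Of the 50-base words in the canonical GBP1 transcript, 14% also occur in another gene, most of them in the pseudogene GBP1P1 and some in GBP3 and GBP2. The share was 4.18% for GBP3, 4.33% for GBP4, 1.66% for GBP2, 0.769% for GBP5, 0.697% for MX1 and 0.566% for MX2. GBP7, which is no member, spans 89131742 to 89176009 on the same strand and overlaps the annotated span of GBP2. Of the words in its canonical transcript, 24.7% also occur in another gene, most of them in GBP2. How reads with several matches were counted was not given in the sources used here. The split between GBP1 and its copies, and that between GBP2 and GBP7, is therefore uncertain in part.

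Promoter windows, from 250 bases before to 50 after a RefSeq start on GRCh38.p14, were matched for 4 of the 7 members, with 3 windows for MX1 and 1 each for GBP1, GBP3 and GBP4. MX2, GBP2 and GBP5 were not matched. The windows were searched on both strands for the core of the ISRE, GAAANNGAA and for the GAS, TTCNNNGAA, which is its own reverse complement. The 2 motifs can overlap, and a match describes letters only. The core occurred in 8.11% and the GAS in 7.66% of all 35116 windows in the table. The stretches below show 1 core of each matched gene and the GAS of GBP3, 5′ to 3′ on the strand of the gene with the motif in capitals, because these are the genes whose levels are compared next. For MX1 it is chr21:41420559-41420588 on the plus strand, for GBP1 chr1:89065315-89065344, for GBP3 chr1:89022844-89022873 and for GBP4 chr1:89198926-89198955, the last 3 on the minus strand.
MX1 ISRE core: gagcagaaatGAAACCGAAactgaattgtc
GBP1 ISRE core: acgaagtactTTCAGTTTCatattactcta
GBP3 ISRE core: aagaagtactTTCAGTTTCattaggctctg
GBP4 ISRE core: tgcatgtcctTTCAATTTCggttctcacag
GBP3 GAS: actgagtcacTTCCTTGAAagaagtacttt
The MX1 stretch holds another core that overlaps the one in capitals and starts 6 bases further on. GBP1 and GBP3 carry the same core letters within a shared run of 19 bases, gaagtactttcagtttcat, the longest run their windows have in common. The GBP1 core lies from position -126 to -118 and the GBP3 core from 3 to 11, counted from the first transcribed base as 0, and the core of GBP4 spans its start, from -3 to 5. GBP1 has another core from 37 to 45. The GAS of GBP3, at chr1:89022862-89022891 on the minus strand, lies from -15 to -7. These positions hold for the RefSeq starts only. The GENCODE spans of GBP1 and GBP3 begin further upstream, at 89065360 and 89022894. Both GBP1 cores and the GBP3 GAS therefore lie inside the GENCODE spans of their genes. The third MX1 window holds an overlapping core and GAS, and the middle MX1 window holds neither motif.

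The libraries held 27277538 to 28690395 counts with siALDOA and 31899091 to 33237914 with siControl. Levels are given as CPM, the counts relative to each library's TMM-scaled total, and 15307 genes passed the filter on low counts and were tested with edgeR's quasi-likelihood test, with an adjusted p < 0.05 as the call. ALDOA (chromosome 16, 30064164 to 30070457) had 289 ± 13.7 CPM in the siALDOA group against 632 ± 38.2 CPM in siControl (SD, n = 3 each), and its log2 fold change was -1.13 (standard error 0.060, edgeR adjusted p = 6.95e-11). Of 10 markers of colon epithelium, 9 were tested, and 1 of them, KRT18, was lower, where 5.29% of all tested genes were called lower. The KRT18 call was lost with library totals only and without siALDOA replicate 2 or 3 or siControl replicate 2 or 3 (adjusted p up to 0.243). The summed level of the epithelial markers was 8390 to 8620 CPM with siALDOA and 9200 to 9660 CPM with siControl. Leukocytes and endothelium are cell types known for GBP and MX expression. Of the 8 leukocyte markers, CD3E and TYROBP were listed at 0 and PTPRC had at most 1 count, while CD14 was higher by 0.32 on the log2 scale (adjusted p = 0.0485) and the list summed to 16.5 to 18.1 CPM against 12.8 to 14.5 CPM. The 6 endothelial markers summed to 1.09 to 1.90 CPM with siALDOA and 2.03 to 2.50 CPM with siControl, with KDR at 0 and PECAM1 lower, and the 6 fibroblast markers to 3.16 to 4.33 CPM against 3.05 to 4.46 CPM, with COL1A2 at 0. Leaving out single libraries kept the call of CD14 in 1 of 6 cases, without siALDOA replicate 1, and that of PECAM1 in 1 of 6, without siALDOA replicate 2. CD14 was also not called with limma-voom, nor PECAM1 with library totals only (adjusted p up to 0.153 and 0.178). What part these markers had in the values below was not tested, and in bulk RNA fewer cells of a type and less RNA per cell cannot be told apart. A value of 0 says only that a gene is listed at 0, since RPL7A, EIF3K and NDUFS1, which every cell uses and which were picked after their values were seen, and the epithelial marker LGALS4 were at 0 in all 6 libraries.

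Both MX genes were higher in every siALDOA library than in any siControl library, MX2 by 3.20-fold and MX1 by 2.35-fold. MX1 was at 289, 386 and 381 CPM in siALDOA replicates 1, 2 and 3 and at 143, 155 and 152 CPM in siControl replicates 1, 2 and 3. These levels rest on 8044 to 11612 counts per library with siALDOA and 4459 to 5009 with siControl. The lowest siALDOA library was thus 1.87 times the highest siControl library. The means were 352 ± 54.8 CPM and 150 ± 6.09 CPM (SD, n = 3 each), a log2 fold change of 1.23 (standard error 0.083). MX2, which is found at the nuclear envelope, was at 70.2, 103 and 97.5 CPM with siALDOA and at 24.8, 29.9 and 29.8 CPM with siControl. Its lowest siALDOA library was 2.35 times its highest siControl library, the widest separation among the members. The means were 90.2 ± 17.5 CPM and 28.2 ± 2.90 CPM (SD, n = 3 each), a log2 fold change of 1.68 (standard error 0.109). By log2 fold change MX2 ranked 22 and MX1 ranked 83 among the 15307 tested genes.

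GBP4 and GBP1 followed, at 1.86-fold and 1.65-fold, again without overlap between the groups. GBP4 was at 11.8, 15.1 and 16.5 CPM with siALDOA and at 5.90, 8.49 and 8.89 CPM with siControl. Every siALDOA library was above every siControl library, the closest 2 by 1.33 times. The log2 fold change of GBP4 was 0.90 (standard error 0.151), between means of 14.5 ± 2.40 CPM and 7.76 ± 1.62 CPM (SD, n = 3 each). GBP1, the GTPase that starts the coat on bacterial membranes, was at 9.99, 14.5 and 14.6 CPM with siALDOA and at 7.44, 8.45 and 7.77 CPM with siControl. Its siALDOA replicate 1 lay closest to the control, at 1.18 times the highest siControl library. The log2 fold change of GBP1 was 0.72 (standard error 0.141), between means of 13.0 ± 2.63 CPM and 7.89 ± 0.517 CPM (SD, n = 3 each). The counts behind these values were 278 to 435 with siALDOA and 232 to 258 with siControl for GBP1, so the scaling for library size enters the comparison.

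GBP3 differed less and GBP2 did not separate the groups. GBP3 was at 42.7, 41.4 and 41.6 CPM with siALDOA and at 31.4, 38.0 and 33.1 CPM with siControl. The siALDOA libraries lay within a narrow band, only 1.09 times above siControl replicate 2 at the closest. The log2 fold change of GBP3 was 0.29 (standard error 0.079), or 1.23-fold. GBP2, which like GBP1 and GBP5 ends in a motif for attachment of a lipid anchor, was at 21.91, 21.96 and 17.95 CPM with siALDOA and at 21.1, 21.4 and 20.2 CPM with siControl. Its siALDOA replicates 1 and 2 were thus above and replicate 3 was below all siControl libraries. Its log2 fold change was -0.02 (standard error 0.096), or 0.986-fold. The sign of the GBP2 value is open, since it was 0.053 with scaling by library totals only and 0.069 without siALDOA replicate 3.

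GBP5, which is strongly induced by interferon gamma in many cells, was close to absent. It had 0, 6 and 4 counts in siALDOA replicates 1, 2 and 3 and 0 counts in every siControl library. It failed the filter on low counts and was not fitted, and in the alternative without a filter it was not among the calls. Against a floor of 3 counts over the siControl group, the 10 counts with siALDOA correspond to a level at least 3.66-fold higher, although siALDOA replicate 1 was also at 0. That bound covers the siControl side only, takes the 10 counts as exact, and rests on few of them, with 2.24-fold without siALDOA replicate 2, which leaves 4 counts, and 2.38-fold without siControl replicate 3. Of the 6 members that passed the filter, 5 passed the threshold as higher, all but GBP2, and 0 as lower, where 4.36% of all tested genes were called higher and 5.29% lower. Those shares stand for 668 and 810 genes, which became 896 and 279 with scaling by library totals only. The groups did not overlap, with siALDOA higher, for the same 5 members and for 13.1% of all tested genes. These counts restate the difference on which the genes were chosen, and nothing is read from them. In the fits without siALDOA replicate 2, siALDOA replicate 3, siControl replicate 1 or siControl replicate 3, GBP3 was no longer among the calls and 4 members passed.

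**Figure D1:**
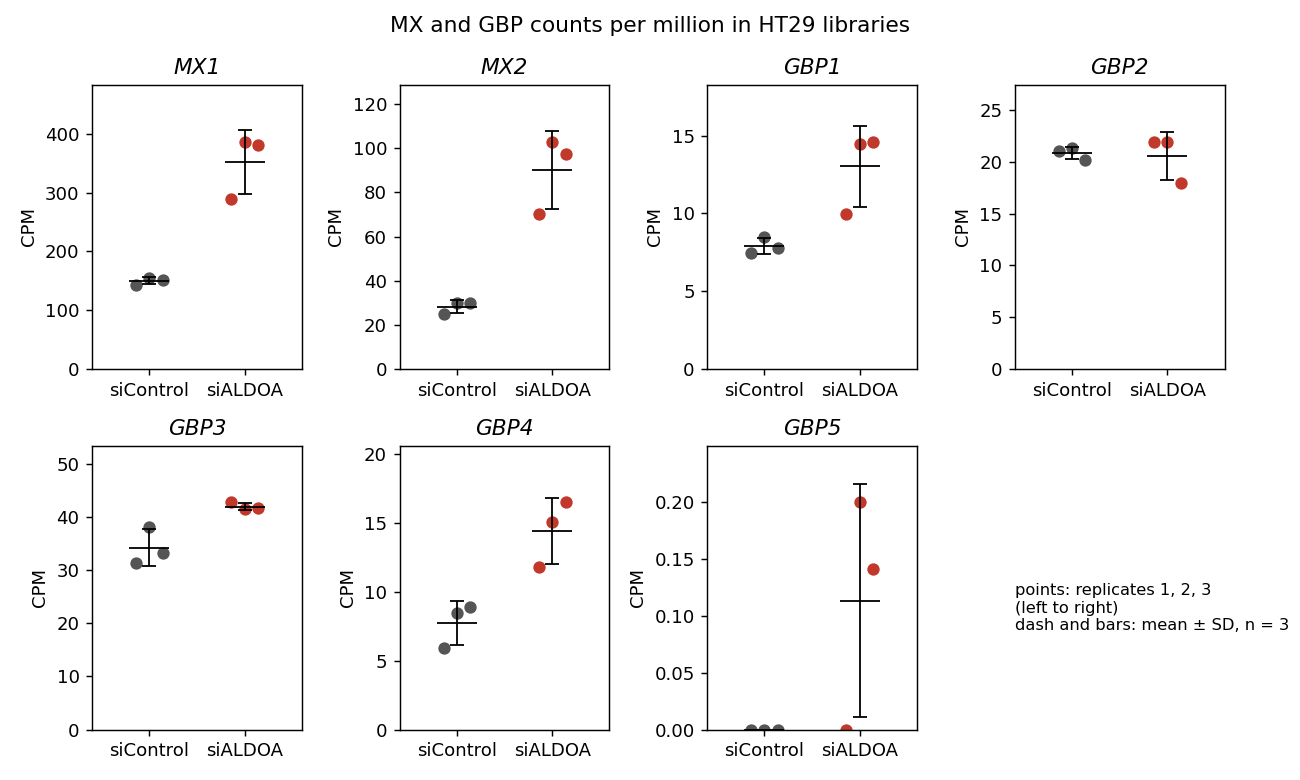
Level of each member in CPM (y axis, linear and starting at 0) in the 3 siControl and 3 siALDOA libraries, with points for replicates and a dash with bars for the mean ± SD. The siALDOA points lie above all siControl points for MX1, MX2, GBP1, GBP3 and GBP4, the groups overlap for GBP2, and GBP5 stays at or below 0.20 CPM.

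Per length, MX1 and GBP3 were the most abundant members in the control cells. With the union of all annotated exons as length, the siControl levels were 8.33 ± 0.339 CPM per kilobase for MX1 and 7.98 ± 0.807 for GBP3, which did not differ beyond their spread. GBP2 followed at 2.89 and MX2 at 1.93 CPM per kilobase, and GBP1 at 1.29 ± 0.0848 and GBP4 at 1.26 ± 0.264 were again within their spread. With siALDOA, the level of MX1 was 19.6, of GBP3 9.78 and of MX2 6.20 CPM per kilobase. MX2 thus stood above GBP2, at 2.85, which it had been below in the control. GBP4 was at 2.36 and GBP1 at 2.13 CPM per kilobase. The order rests on the length used. With the length of the canonical transcript, MX1 was at 54.0 ± 2.19 CPM per kilobase in siControl, far above GBP3 at 11.3 ± 1.14, and MX2 at 8.27 ± 0.850 was above GBP2 at 5.11 ± 0.144 without siALDOA too. GBP1 was then at 2.74 ± 0.179 and GBP4 at 1.26 ± 0.264. The annotated exons of MX1 cover 17984 bases in all and its canonical transcript 2776, the widest gap among the members.

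Ratios of counts within a library do not depend on the scaling. MX1 had 13.2, 17.6 and 21.2 counts for each count of GBP2 with siALDOA and 6.78, 7.24 and 7.51 with siControl. The ratio of MX2 to GBP2 was 3.20, 4.69 and 5.43 against 1.18, 1.40 and 1.47. In both, the lowest siALDOA library lay well above the highest siControl library. For GBP4 to GBP2 the ratio was 0.539, 0.686 and 0.920 with siALDOA and 0.280, 0.397 and 0.439 with siControl. For GBP1 to GBP2 it was 0.456, 0.659 and 0.814 against 0.353, 0.396 and 0.384, and for GBP3 to GBP2 it was 1.95, 1.88 and 2.32 against 1.49, 1.78 and 1.64. All 5 ratios to GBP2 were thus separated between the groups. Since GBP2 itself differed little, this restates the difference on which the genes were chosen, and nothing is read from it. All 5 ratios were highest in siALDOA replicate 3, the library where GBP2 was lowest, at 17.95 CPM.

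Within the families the members did not move by equal amounts. The ratio of MX2 to MX1 was 0.243, 0.266 and 0.256 with siALDOA and 0.174, 0.193 and 0.196 with siControl, a 1.36-fold difference of the means without overlap. GBP4 and GBP1 kept a similar ratio, 1.18, 1.04 and 1.13 with siALDOA and 0.793, 1.00 and 1.14 with siControl, where the groups overlapped. GBP1 to GBP3, the pair with the most similar coding sequences, was at 0.234, 0.350 and 0.351 with siALDOA and at 0.237, 0.222 and 0.234 with siControl. Here siALDOA replicate 1 lay among the controls and the other 2 siALDOA libraries lay above them. Summed over the 5 GBP members, the level was 86.4, 93.1 and 90.8 CPM against 65.8, 76.4 and 70.0 CPM, and most of it came from GBP3 and GBP2.

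**Figure D2:**
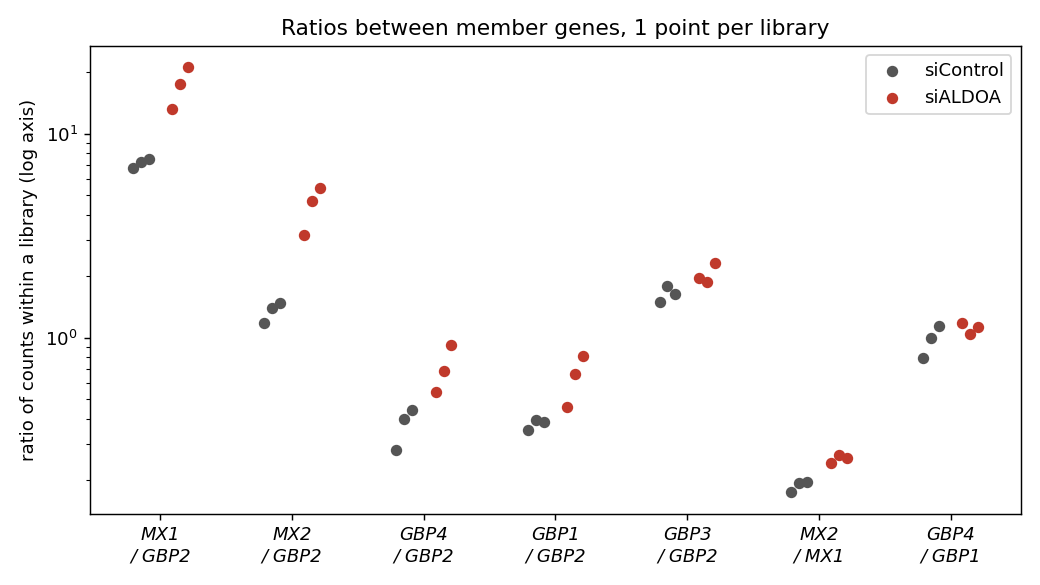
Ratio of the counts of 2 members within each library (y axis, log scale), with 1 point per library and siControl and siALDOA side by side. All 5 ratios to GBP2 and the ratio of MX2 to MX1 are higher in each siALDOA library, and the ratio of GBP4 to GBP1 overlaps between the groups. The ratios to GBP2 restate the difference on which the members were chosen.

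The spread between replicates, which did not enter the choice of the genes, was uneven. With siALDOA the coefficient of variation was 15.6% for MX1, 19.4% for MX2, 20.2% for GBP1 and 16.6% for GBP4. For GBP3 it was 1.65% with siALDOA, below its counting error of 2.88%, and 10.1% with siControl. The biological coefficient of variation that edgeR estimated over both groups was 7.66% in common for all tested genes, 7.22% for MX1, 8.99% for MX2, 10.9% for GBP1, 6.51% for GBP3 and 11.7% for GBP4. With siControl, MX1 varied by 4.06% and GBP1 by 6.56%, and GBP4 had the widest spread at 20.9%. In the siALDOA group, replicate 1 was the lowest library for MX1, MX2, GBP1 and GBP4, at -0.27, -0.34, -0.36 and -0.28 below the group mean on the log2 scale. It was not low for GBP2 (0.095) or GBP3 (0.027). The same library had 13.1% of its counts on ribosomal RNA genes, against 7.73% and 8.12% in the other 2 siALDOA libraries. In siControl the shares were 17.4%, 15.3% and 8.17%, and replicate 1 was the lowest control library for MX1, MX2, GBP1, GBP3 and GBP4, at -0.37 for GBP4. The part of ribosomal RNA in these deviations was not tested. Without siALDOA replicate 1 the log2 fold changes were 1.36 for MX1, 1.83 for MX2, 0.88 for GBP1 and 1.02 for GBP4.

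Other genes of the dynamin superfamily did not show differences of the size seen for MX1, MX2, GBP4 and GBP1. The members were chosen with their difference known, so the comparison is a description only. This list held 14 genes for membrane fission and fusion, the dynamins, mitofusins, atlastins, OPA1 and the EHD proteins, of which 13 were tested and EHD3 was listed at 0. Their log2 fold changes lay between -0.47 and 0.23 with a median of -0.077, beside a median of 0.0016 over all tested genes. Among the members, GBP2 at -0.02 lay within this range and GBP3 at 0.29 lay above it. MFN1, which fuses outer mitochondrial membranes, was the 1 gene of the 13 that passed the test, higher by 0.23 (standard error 0.068, edgeR adjusted p = 0.0348). Over all tested genes, 4.36% were called higher and 5.29% lower, and nothing is read from this count. The MFN1 call was lost without siALDOA replicate 1, siALDOA replicate 3, siControl replicate 2 or siControl replicate 3, with an adjusted p of up to 0.186. Among 8 further genes of the GBP and immunity-related GTPase (IRG) families, 7 were matched by symbol, of which GBP6, GBP7 and IRGC were listed at 0 and 2 were tested. GVINP2 was not analysed here. IRGQ, a member linked to autophagy, fell by 0.35 on the log2 scale (standard error 0.070, edgeR adjusted p = 0.00241), which became 0.0509 with scaling by library totals only. GVINP1 had a log2 fold change of 0.12, and the pseudogene GBP1P1 had 1 count in a single library.

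**Figure D3:**
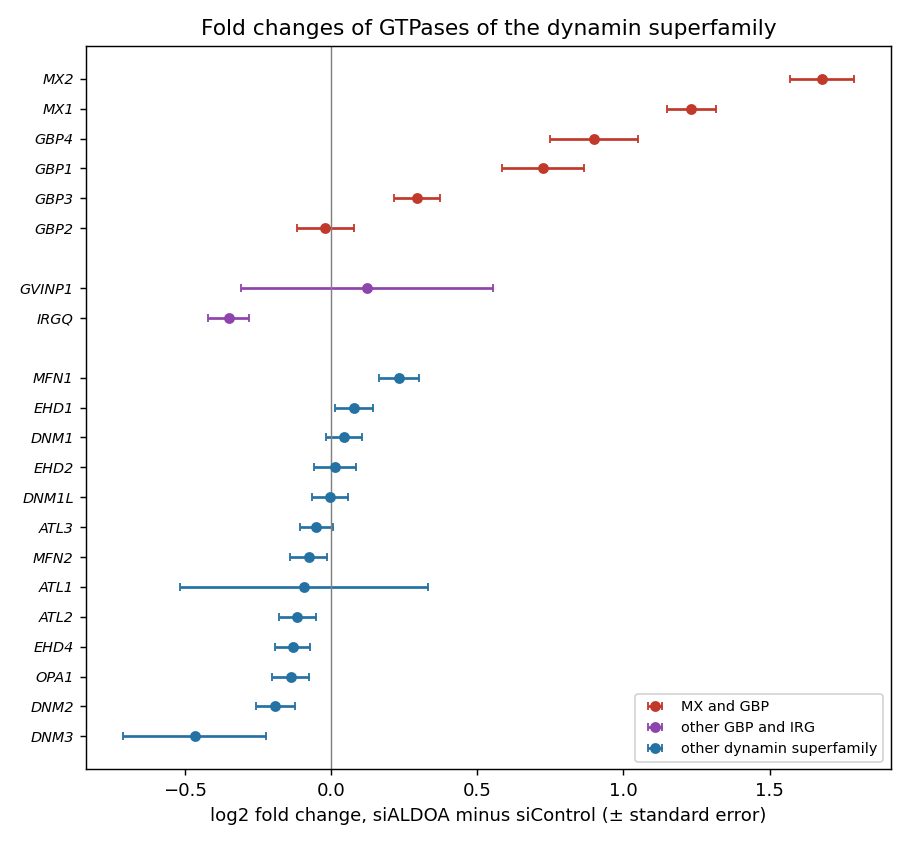
Log2 fold change of siALDOA against siControl (x axis, points with bars for the standard error) for the 6 fitted MX and GBP members, 2 other GBP and IRG genes and 13 other dynamin superfamily genes. The points of MX2, MX1, GBP4 and GBP1 lie to the right of all other genes, from 0.72 to 1.68, while the 13 other superfamily genes lie between -0.47 and 0.23. GBP3 lies at 0.29 and GBP2 at -0.02, and the members were chosen with their difference known.

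The genes beside the 2 loci were examined because neighbours on a chromosome can share regulation. On chromosome 1, the 5 protein-coding genes before the cluster, LMO4, PKN2, GTF2B, KYAT3 and RBMXL1, had log2 fold changes from -0.24 to 0.11 and none passed the test. On the other side LRRC8B, a subunit of volume-regulated anion channels, was lower by -0.31 (standard error 0.064, edgeR adjusted p = 0.00334, or 0.0884 with library totals only), and its neighbour LRRC8C had -0.08. Beside the MX pair, BACE2 had 0.0013 and TMPRSS2, a serine protease that overlaps the annotated span of MX1 on the opposite strand, had 0.15 (standard error 0.062, edgeR adjusted p = 0.156). TMPRSS2 had 74.8 ± 2.26 CPM with siALDOA against 67.6 ± 2.46 CPM with siControl (SD, n = 3 each). Whether the counting used strand was not given in the sources used here, so reads of the overlap could stand under either gene. RIPK4, PRDM15 and C2CD2 lay between 0.00066 and 0.061. ZBTB21, a zinc finger protein, was lower by -0.32 (standard error 0.089, edgeR adjusted p = 0.0271), a call kept only without siALDOA replicate 1 or siControl replicate 1 among the fits that left out 1 library, and lost with library totals only. No tested neighbour passed the test as higher. Over all tested genes, 4.36% were called higher and 5.29% lower, so few calls would stand among so few neighbours in any case.

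**Figure D4:**
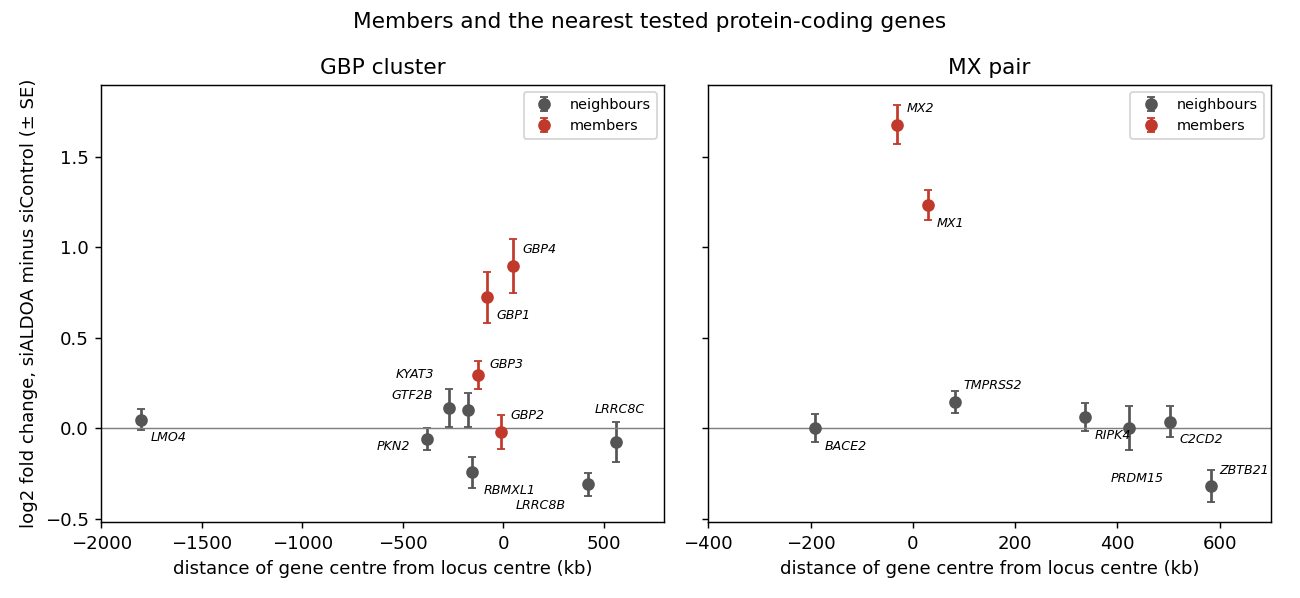
Log2 fold change with its standard error (y axis) against the distance in kilobases of each gene's centre from the centre of the GBP cluster (left) and of the MX pair (right), for fitted members and tested protein-coding neighbours. MX2 and MX1 stand at 1.68 and 1.23 next to neighbours from -0.32 to 0.15, and within the GBP cluster GBP2 lies near 0 between GBP1 and GBP4.

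Genes that carry the interferon signal to MX and GBP promoters were partly higher. Several were known as higher from earlier results of these data, so their direction is no independent evidence. Of 14 genes for interferon receptors, kinases and transcription factors, all tested, 5 rose and 0 fell, beside 4.36% and 5.29% of all tested genes, with a median log2 fold change of 0.12. STAT2, a transcription factor of the type I and type III routes, had 81.2 ± 7.30 CPM with siALDOA against 47.3 ± 1.19 CPM with siControl (SD, n = 3 each) and rose by 0.78 (edgeR adjusted p = 1.63e-07). IRF7 rose by 0.76 (edgeR adjusted p = 4.51e-07) and IRF1, which is also induced by interferon gamma, by 0.39 (edgeR adjusted p = 0.00196). IRF9, the DNA-binding partner of STAT2, rose by 0.27 (edgeR adjusted p = 0.0253), and so did IFNGR2, a chain of the interferon gamma receptor (edgeR adjusted p = 0.0371). When libraries were left out singly, only the fit without siALDOA replicate 1 kept IRF9 and only that without siALDOA replicate 2 kept IFNGR2, with adjusted p of up to 0.161 and 0.184. The call of IFNGR2 was also lost with limma-voom on all 6 libraries. Of 10 feedback inhibitors, 9 were tested, 3 rose and 0 fell, beside the same 4.36% and 5.29%. ISG15, a ubiquitin-like modifier, rose by 1.18 (edgeR adjusted p = 8.53e-10) and USP18, which removes it and blocks the type I receptor, by 0.70 (edgeR adjusted p = 7.39e-05). PIAS3 rose by 0.24 (edgeR adjusted p = 0.0302), which was kept only without siALDOA replicate 1 among the same 6 fits, so that the others left 2 calls, and the list had a median of 0.12.

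Readouts of interferon gamma other than the GBPs were mixed. Of 16 genes, 9 were tested, of which 2 rose and 1 fell where 4.36% of all tested genes rose and 5.29% fell, with a median log2 fold change of 0.27. CXCL10, a chemokine, had 4.42 ± 1.68 CPM with siALDOA against 1.21 ± 0.306 CPM with siControl (SD, n = 3 each), a log2 fold change of 1.86 (standard error 0.297, edgeR adjusted p = 2.71e-04), and IRF1 was the other riser. WARS1, a tryptophanyl-tRNA synthetase, fell by 0.39 on the log2 scale (edgeR adjusted p = 0.00445). CIITA, the activator of MHC class II genes, had -0.06, and HLA-DRA, HLA-DRB1 and HLA-DPA1 were listed at 0 in all libraries. CD74, the class II invariant chain, had 0.27 (edgeR adjusted p = 0.215) and CXCL11 had 0.40 (edgeR adjusted p = 0.514).

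Of 15 genes that work with GBP proteins, 14 were tested, 4 rose and 0 fell, beside 4.36% and 5.29% of all tested genes, with a median log2 fold change of 0.039. RNF213, a giant E3 ligase that ubiquitylates bacterial lipopolysaccharide, had 1023 ± 91.4 CPM with siALDOA against 589 ± 5.33 CPM with siControl (SD, n = 3 each) and rose by 0.80 (edgeR adjusted p = 3.84e-08). APOL3, which permeabilises bacteria behind GBP1, rose by 0.87 (edgeR adjusted p = 0.00409) at 5.93 ± 1.02 CPM against 3.24 ± 0.419 CPM (SD, n = 3 each). GSDMD, the pore protein of pyroptosis, rose by 0.32 (edgeR adjusted p = 0.00836), with adjusted p of up to 0.0777 without siALDOA replicate 3 or siControl replicate 2. FNTB, a subunit of the farnesyltransferase that modifies GBP1, rose by 0.36 (edgeR adjusted p = 0.0304), kept only without siALDOA replicate 3 among the fits that left out 1 library. CASP4, the protease that senses lipopolysaccharide on GBP coats, had a log2 fold change of 0.05. Of 10 host factors through which MX proteins act or that they bind, such as nuclear pore proteins, all were tested, 0 rose and 1 fell, beside the same shares, with a median of -0.016. The one that fell was the nuclear pore protein NUP98, by 0.21 on the log2 scale (standard error 0.054, edgeR adjusted p = 0.0185). This call was lost with library totals only (adjusted p = 0.353) and without siALDOA replicate 2, siALDOA replicate 3, siControl replicate 2 or siControl replicate 3.

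**Figure D5:**
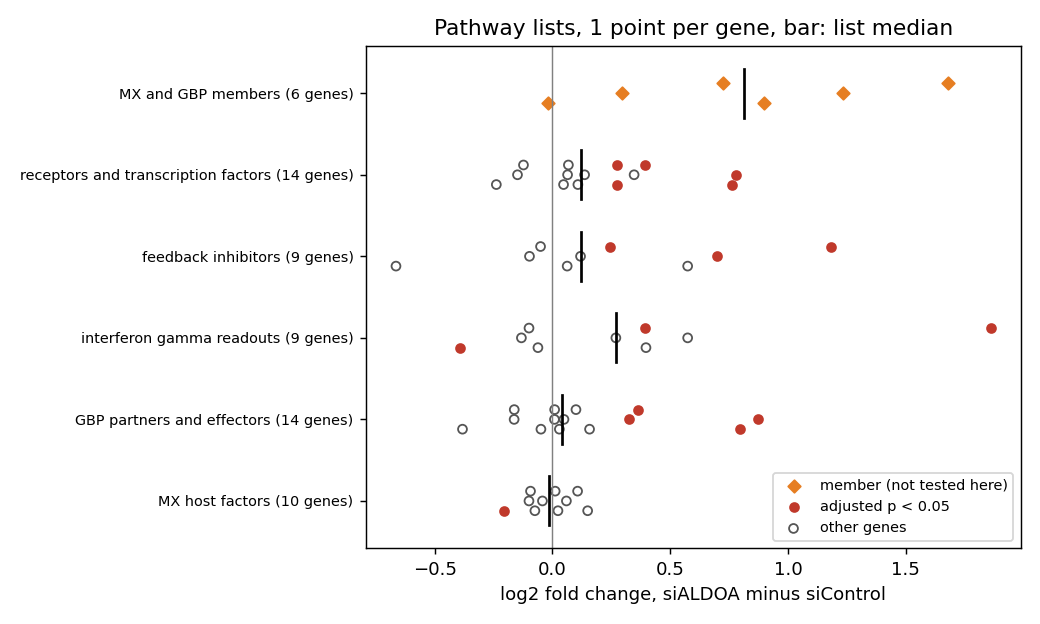
Log2 fold change of siALDOA against siControl (x axis) for the fitted members and for 5 lists of genes that act before or with them, with 1 point per gene, filled circles for an adjusted p < 0.05, diamonds for the members and a black bar for each list's median. The medians are 0.12 for receptors and transcription factors, 0.12 for feedback inhibitors, 0.27 for interferon gamma readouts, 0.039 for GBP partners and -0.016 for MX host factors.

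The genes most like the members across the 6 libraries were BST2, ADAM15, ISG15, BMP1 and COX15, by the correlation of log2 CPM with the mean of the scaled levels of the 6 fitted members. The correlation was 0.993 for BST2, an antiviral membrane tether, and 0.990 to 0.992 for the other 4. BMP1 itself did not pass the test between the groups, with a log2 fold change of 0.21 (edgeR adjusted p = 0.248). The correlation is a description over libraries that share depth and group labels. For the deviations from the group means it was 0.979 for ADAM15, 0.973 for ISG15, 0.886 for BMP1, 0.883 for COX15 and 0.734 for BST2. Each member was set against the mean of the other 5 fitted members, which leaves out its own values. The deviations then correlated by 0.882 for MX2, 0.770 for GBP1, 0.763 for MX1 and 0.736 for GBP4, and by 0.268 for GBP3 and -0.38 for GBP2.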

How the data were processed

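The 6 RNA-Seq libraries of HT29 cells, 3 siALDOA and 3 siControl, were grouped by the treatment in the labels. Reads had been mapped on hg38 by tophat2 and assigned to genes by gfold, and the authors deposited raw counts per gene symbol without normalization. Gene annotation, strand setting and handling of reads with several matches were not given in the sources used here. The totals ranged from 27277538 to 33237914 counts, and with 3 libraries per group the precision rests on few residual degrees of freedom.

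Counts were fitted in R 4.3.3 with edgeR 4.0.16 (filterByExpr, TMM, quasi-likelihood test, Benjamini-Hochberg over 15307 genes). Standard errors are the log2 fold change over the square root of its F statistic, with the spread moderated across all genes. The code was tested on simulated data. Coordinates and lengths came from GENCODE release 44 and promoters from RefSeq. Alignment identities, computed with Biopython 1.88, used coding sequences, since no protein table was used here.

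A result of 1 gene is not reported here. The members and gene lists were chosen with earlier results of these data known. Named genes were ALDOA, the members, list genes with an adjusted p < 0.05 or listed at 0, tested neighbours and the 5 genes most like the members. A few others were named after their values were seen, which are CASP4, CIITA, CD74, CXCL11, GVINP1, GVINP2, GBP1P1 and marker genes. Alternatives were limma-voom (limma 3.58.1), DESeq2 1.42.0, other scalings and filters, no ribosomal RNA genes, the study's unadjusted threshold, a block for the replicate number and leaving out single libraries. Biological replicates are those of the labels.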

Additional observations from a re-analysis of the deposited data

How the results depend on the processing

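The log2 fold changes of MX1, MX2, GBP1, GBP3 and GBP4 stayed positive under all 15 alternatives. With 1 library left out they ranged from 1.16 to 1.36 for MX1, 1.57 to 1.83 for MX2, 0.63 to 0.88 for GBP1, 0.24 to 0.38 for GBP3 and 0.74 to 1.02 for GBP4, and that of GBP2 from -0.069 to 0.069. With library totals as the only scaling, the median over all tested genes was 0.075 and these values were 1.31, 1.76, 0.80, 0.37, 0.97 and, for GBP2, 0.053. This scaling gave 896 higher and 279 lower genes, against 668 and 810 with TMM, and 0 lower genes in each of the lists of other GBP and IRG genes and of MX host factors. Without 1 library, 359 to 644 genes were higher and 471 to 790 lower, the lowest without siControl replicate 2 (359 higher) and siControl replicate 3 (471 lower). Likewise 3 to 4 interferon receptor and signalling genes were higher (3 without siALDOA replicate 3 or any 1 siControl library), 0 to 1 other dynamin superfamily genes were higher, 2 to 3 GBP partners were higher (2 without siControl replicate 2) and 0 to 1 MX host factors were lower. In the superfamily list 1 gene was called lower with no filter on low counts, with the study's unadjusted P < 0.01 and with a replicate block. The replicate block gave 987 higher and 1175 lower genes, 5 members higher, and 1 MX host factor higher. The labels do not say whether the numbers pair the libraries, and the main fit did not pair them. Deviations of same-numbered libraries correlated by 0.026 to 0.035 and those of differently numbered libraries by -0.0457 to 0.0215. Every same-numbered value was thus the higher, but all were small, and the pairing is not settled. The counts limit GBP5 and the genes listed at 0. The cause of the moved values was not tested.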
